A study of Mus musculus with 4 samples.

Results

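The nuclei described here were picked by a marker rule from single-nucleus RNA libraries of mouse aorta, under the working name of foamy St18 Atp6v0d2 macrophage nuclei. A nucleus belonged when at least 4 of 10 marker genes had a UMI (a unique molecular identifier, which counts 1 captured RNA molecule) and at most 1 of 11 exclusion genes had one. The markers were St18, Ms4a7, Atp6v0d2, Msr1, Kcnk13, Trem2, Gpnmb, Mamdc2, Lilr4b and Cd84. The exclusion genes were F13a1, Cd163, Clec10a, Vmn2r26, Padi4, Pecam1, Cdh5, Pdgfra, Myh11, Adipoq and Ucp1, which stand for resident macrophages, endothelium, fibroblasts, smooth muscle, fat and other cells. The rule took 9545 of 107709 kept nuclei. They are called rule nuclei, because in the high-fat library nuclei with lymphocyte markers passed about as often as all nuclei (below).

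All mice carried a CA1 knock-in (the mouse gene is Car1, carbonic anhydrase 1) and lacked ApoE. There were 4 groups with 1 library each: mice without treatment (untreated), mice on high-fat food (high_fat), mice on high-fat food given methoxazolamide (MTZ in the labels) once atherosclerosis was established (MTZ_after), and mice given it simultaneously with the diet (MTZ_simultaneous). Ages, doses, durations, the number of mice in a library and the promoter of the knock-in were not given in the sources used here. With 1 library a group no difference could be set against the spread between animals. Every interval is therefore a 95% counting interval, and no p-value is given. Values in series below follow the order untreated, high_fat, MTZ_after, MTZ_simultaneous.

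Foam cells are macrophages of the arterial wall that have taken up lipoprotein particles and store the cholesterol as droplets. Scavenger receptors such as Msr1 bring modified lipoprotein into the lysosome, a proton pump (the v-ATPase, of which Atp6v0d2 is a subunit) acidifies that compartment, acid lipase frees the cholesterol, and Abca1 and Abcg1 pass it out of the cell. Trem2 is a lipid-sensing receptor and Gpnmb a glycoprotein of stressed lysosomes, and both are known from lipid-laden macrophages in several tissues. St18 is a zinc-finger transcription factor.

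The share of kept nuclei that passed the rule was 4.72% (4.44 to 5.00) in untreated, 17.3% (16.9 to 17.6) in high_fat, 3.41% (3.20 to 3.63) in MTZ_after and 5.05% (4.74 to 5.37) in MTZ_simultaneous, from 1054, 6561, 958 and 972 nuclei. These counts cannot be read as numbers of macrophages, since nuclei carrying lymphocyte markers passed in each library too. Among nuclei with at least 3 of 14 T and NK cell markers (795, 716, 489 and 434 nuclei), 2.01% (1.15 to 3.25) passed in untreated, 18.9% (16.1 to 21.9) in high_fat, 3.48% (2.04 to 5.51) in MTZ_after and 3.23% (1.77 to 5.35) in MTZ_simultaneous. Among nuclei with at least 3 of 11 B and plasma cell markers, a class added after the data were seen, the shares were 4.78% (3.31 to 6.65), 16.8% (15.2 to 18.5), 2.89% (1.66 to 4.66) and 3.37% (2.40 to 4.60). Nuclei with at least 8 of 10 endothelial genes, also added later, passed at 0.674, 5.84, 1.55 and 1.43%, but Pecam1 and Cdh5 are exclusion genes and hold that share down. The shares of all nuclei in high_fat and MTZ_after lay inside the intervals of both the T/NK-marker and the B-marker nuclei. In untreated the share lay above the T/NK-marker interval and inside the B-marker one, and in MTZ_simultaneous it lay inside the T/NK-marker interval and above the B-marker one. With all UMIs, the high_fat share thus showed no excess over nuclei that carry lymphocyte markers.

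**Figure D1:**
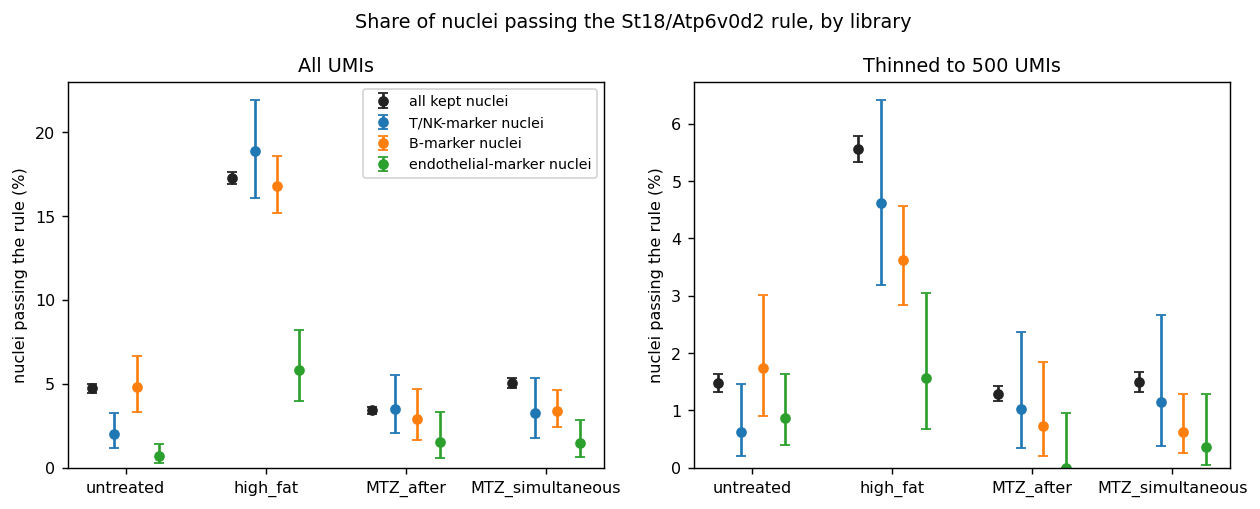
Percent of nuclei passing the rule in each library, for all kept nuclei and for nuclei carrying markers of T and NK, B and plasma, or endothelial cells, with 95% exact binomial intervals; left, all UMIs, and right, every nucleus thinned to 500 UMIs. In high_fat the T/NK-marker point (18.9%) and the B-marker point (16.8%) lie beside that of all nuclei (17.3%).

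Depth differed between these classes and between libraries. The median kept nucleus held 2026, 969, 828 and 1417 UMIs, fewer in each library than the median rule, T/NK-marker or B-marker nucleus. The median rule nucleus held 2672.5, 1214, 1156.5 and 1669 UMIs, the median T/NK-marker nucleus 2569, 1920.5, 1504 and 1966 and the median B-marker nucleus 2730.5, 1577, 1364 and 1864.5. When each nucleus was thinned at random to 500 UMIs, with 0 nuclei falling below that depth, 1.47, 5.56, 1.28 and 1.48% of all nuclei passed. The thinned shares were 0.629, 4.61, 1.02 and 1.15% of T/NK-marker nuclei and 1.74, 3.63, 0.723 and 0.622% of B-marker nuclei. After thinning, all nuclei of high_fat stood above the upper limit of B-marker nuclei (4.56%) and within that of T/NK-marker nuclei (6.41%). The part of depth and of RNA from other cells in these shares was not tested. With at least 7 markers, a threshold chosen after the data were seen, 1.33, 2.03, 0.349 and 0.960% of all nuclei passed, against 0.881, 2.79, 1.02 and 0.922% of T/NK-marker nuclei and 1.01, 3.37, 0.181 and 0.622% of B-marker nuclei.

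The exclusion genes shaped the set as the markers did. Of nuclei with at least 4 markers, 1431, 3861, 670 and 1066 failed on exclusion genes, and these were deeper, with medians of 4338, 2070, 2190.5 and 2743 UMIs. Pecam1, an endothelial adhesion molecule, had a UMI in 62.4, 60.7, 55.1 and 63.7% of all kept nuclei. Of the rule nuclei, 65.4, 64.9, 64.1 and 69.3% carried 1 exclusion gene. Between pairs of libraries 118 to 376 cell barcodes were shared, at most 1.34% of a library, and they were kept.

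Promoters of the markers were looked at because these genes were detected together by the rule. RefSeq windows on build GRCm38.p6, from 250 bases before to 50 after the start, were found for 6 of the 10 markers, in 7 windows. Each was searched on both strands for TGANTCA (the AP-1 motif), GAGGAA (a core bound by PU.1), CACGTG and CATGTG (E-box forms bound by MITF and TFE factors) and AAGTTT, none of which contains another. TGANTCA was in 4 of 7 windows and in 7.81% of all 32851 windows. GAGGAA was in 4 of 7 and in 28.3% of all. CACGTG was in 0 of 7 (7.15% of all), CATGTG in 1 (14.2%) and AAGTTT in 1 (14.4%). A match describes letters and is no evidence of binding. The windows of Trem2 (chr17:48346151-48346450, plus strand), Gpnmb (chr6:49036268-49036567, plus strand) and Cd84 (chr1:171839447-171839746, plus strand) are printed as examples that hold TGANTCA, which is in capitals and was picked for display after the counts were known:
Trem2: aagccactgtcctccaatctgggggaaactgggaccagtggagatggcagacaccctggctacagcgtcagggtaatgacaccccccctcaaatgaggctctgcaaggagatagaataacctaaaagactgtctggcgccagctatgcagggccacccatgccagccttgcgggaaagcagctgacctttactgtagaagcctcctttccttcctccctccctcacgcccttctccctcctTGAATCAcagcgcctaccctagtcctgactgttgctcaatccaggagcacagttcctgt
Gpnmb: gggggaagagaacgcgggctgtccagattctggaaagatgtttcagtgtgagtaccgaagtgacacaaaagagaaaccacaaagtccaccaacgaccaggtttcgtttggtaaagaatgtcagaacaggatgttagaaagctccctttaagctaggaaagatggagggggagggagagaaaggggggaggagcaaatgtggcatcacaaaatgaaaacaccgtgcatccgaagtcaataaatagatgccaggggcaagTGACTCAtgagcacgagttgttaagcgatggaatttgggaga
Cd84: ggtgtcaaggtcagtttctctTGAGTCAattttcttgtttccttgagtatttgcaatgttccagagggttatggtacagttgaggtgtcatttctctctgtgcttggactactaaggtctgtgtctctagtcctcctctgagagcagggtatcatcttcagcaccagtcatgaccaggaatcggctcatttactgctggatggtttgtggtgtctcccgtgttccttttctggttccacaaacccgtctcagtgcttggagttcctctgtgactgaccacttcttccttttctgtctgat

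The markers that chose the nuclei were led by Gpnmb and Atp6v0d2, and their levels are a description. Levels are in counts per 1000000 (CPM), the gene's part of all UMIs summed over the nuclei of a class. Gpnmb stood at 3368, 2085, 2296 and 2093 CPM and Atp6v0d2 at 1825, 1277, 1427 and 1141 CPM. St18 stood at 1008, 849, 794 and 721 CPM, highest in untreated like both genes before it. Lilr4b, an inhibitory receptor with a closely related neighbour that can share its reads, ran the other way at 488, 498, 596 and 877 CPM. Mamdc2, Cd84, Msr1 (a scavenger receptor), Kcnk13 (a potassium channel), Ms4a7 and Trem2 followed, down to 144, 114, 105 and 111 CPM for Trem2. In all other kept nuclei the 10 markers summed to 850.1, 2691, 975 and 974 CPM, so the level outside the rule nuclei was highest in high_fat.

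Nuclei just inside and just outside the threshold differed by degrees. With 3 markers and at most 1 exclusion gene, Lgals3, a galectin of lipid-laden macrophages, stood at 394, 444, 321 and 390.2 CPM. With 4 markers it stood at 608, 501, 445 and 540.0 CPM. In nuclei with 0 markers it stood at 51.5, 208, 61.5 and 107 CPM and in those with 8 markers at 1622, 870.0, 1206 and 1174 CPM. The level was higher at 8 than at 0 markers in each library, and nuclei with no marker held the most of it in high_fat. Mecom, a transcription factor gene of arterial endothelium, went from 1581 to 234 CPM in untreated and from 2665 to 1184 CPM in high_fat over the same range. Median UMIs rose alongside, from 1406.5 to 6027 in untreated and from 780 to 2408 in high_fat, and their part in these gradients was not tested.

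**Figure D2:**
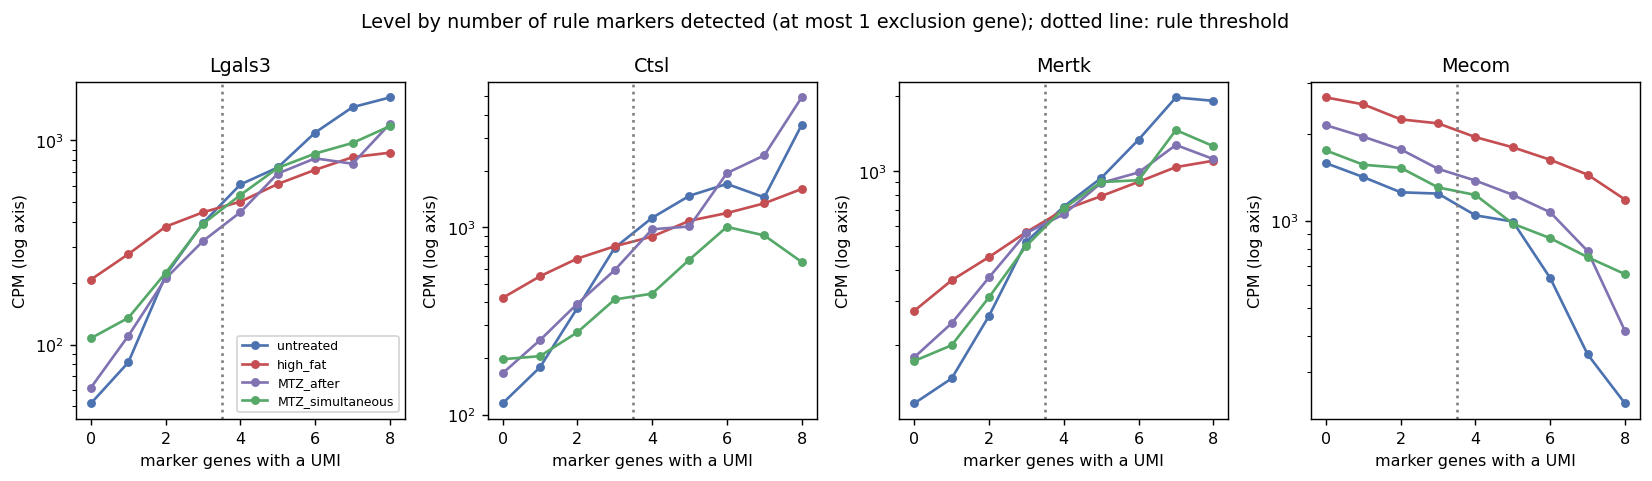
Level (CPM, log axis) of Lgals3, Ctsl, Mertk and Mecom in nuclei grouped by the number of rule markers detected, 1 line per library, with the rule threshold dotted. Each of the 3 macrophage genes is higher at 8 than at 0 markers and Mecom is lower.

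Outside the markers, the rule nuclei held more RNA of the lysosome and of its proton pump than T/NK-marker nuclei of the same library, a class that includes its own nuclei that passed the rule. All 15 v-ATPase subunits listed were above in each of the 4 libraries, and their summed level was 3859, 2721, 2934 and 2814 CPM in rule nuclei against 1337, 1744, 1115 and 1282 CPM. Of 22 lysosomal hydrolases and cathepsins, 21, 22, 20 and 21 were above. The cysteine protease gene Ctsb stood at 2529.9, 1452, 1782 and 1214 CPM, against 305, 779, 314 and 347 CPM in T/NK-marker nuclei. The 5% of rule nuclei with the most Ctsb held 56.4, 32.5, 51.8 and 45.5% of its counts. Lipa, the acid lipase, stood at 493, 262, 309 and 290.3 CPM against 103, 136, 87.1 and 81.7 CPM. The ratio of both genes was smallest in high_fat.

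Cholesterol export and droplet genes were higher too. Abca1 stood at 2649.5, 2149, 2167 and 2315 CPM, against 685, 1411, 789 and 839 CPM in T/NK-marker nuclei. Abcg1 stood at 624, 409, 418 and 478 CPM against 132, 247, 112 and 151 CPM. Plin2, which coats lipid droplets, stood at 762, 343, 414 and 449 CPM against 289, 177, 134 and 146 CPM. All 4 libraries were above for each of these genes. Cholesterol synthesis genes summed to 231, 184, 196 and 207 CPM in rule nuclei, 321, 169.5, 256 and 271 CPM in T/NK-marker nuclei and 365, 196, 259 and 210.0 CPM in all other nuclei. In high_fat the rule nuclei lay between the other 2 classes, and in MTZ_simultaneous they hardly differed from all other nuclei.

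General macrophage genes were higher, while inflammatory genes lay near the other classes. The 16 pan-macrophage genes summed to 5555, 3538, 3436 and 3827 CPM, against 1460.5, 2399, 1424 and 1627 CPM in T/NK-marker nuclei. Mertk, a receptor for the uptake of dying cells, stood at 1417, 847, 888 and 1022 CPM against 303, 513, 258 and 285 CPM. After thinning, a Mertk UMI was seen in 40.7, 32.1, 34.2 and 36.2% of rule nuclei and in 9.69, 20.3, 11.5 and 9.91% of T/NK-marker nuclei. Unthinned, these shares were 78.5, 59.8, 57.2 and 69.9% and 36.2, 54.1, 32.1 and 33.2%. The receptor Csf1r stood at 75.9, 40.3, 44.5 and 76.3 CPM, against 132, 76, 58 and 91.7 CPM in resident macrophage nuclei, a class defined below. In high_fat, MTZ_after and MTZ_simultaneous the resident sums were 78970, 155279 and 174537 UMIs. The resident Csf1r values there thus rest on few counts. The 20 inflammatory genes summed to 949.9, 1028, 941 and 995 CPM, against 891, 1042, 897 and 961 CPM in T/NK-marker nuclei. MHC class II genes summed to 271, 335, 274 and 314 CPM against 181, 336, 234 and 313 CPM.

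Genes of the osteoclast-type list were mostly, but not all, higher than in T/NK-marker nuclei. Of 18 listed genes, 13, 14, 13 and 13 were above T/NK-marker nuclei, and 1, 1, 2 and 2 had 0 counts in rule nuclei. The list summed to 2438, 1886, 1991 and 2230 CPM against 737, 1251.5, 710 and 819 CPM. Osteoclasts are bone-resorbing relatives of macrophages that share Atp6v0d2, the collagen-cleaving protease Ctsk and the transcription factor Mitf. Ctsk stood at 101, 103, 118 and 139 CPM in rule nuclei against 17.5, 38, 32.2 and 12.6 CPM in T/NK-marker nuclei, and Mitf at 1251, 893, 1049 and 1071 CPM against 302, 593, 288 and 358 CPM. Tfec (a relative of Mitf), Tcirg1 (a pump subunit), Clcn7 (a chloride transporter) and Tnfrsf11a (the RANKL receptor) were also above in each library. The gelatinase Mmp9 had 2, 0, 2 and 3 counts and the osteoclast carbonic anhydrase Car2 had 8, 20, 11 and 7 counts in all rule nuclei. Car1, the gene of the knock-in, stood at 87.7, 77, 45.2 and 121 CPM, below the 130.0, 88.7, 63.8 and 153 CPM of all other nuclei. Apoe stood at 11, 8.66, 12.2 and 8.13 CPM. Tags at the 3' end may lie outside the deleted part, so this does not check the knock-out.

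RNA of other cell types was present in the rule nuclei of each library. Endothelial genes summed to 1211, 3298, 2694 and 1939.9 CPM in them, against 3852, 4844, 4979.9 and 4467 CPM in all other nuclei, with none of the 10 genes at 0. Smooth muscle genes summed to 607, 1097, 1135 and 1376 CPM, B and plasma cell genes to 1446, 1398, 1154 and 1000.4 CPM and T and NK genes to 140.4, 301, 264 and 165 CPM. Endothelial RNA was highest in high_fat, and its part in the results below was not tested.

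Resident macrophages of the vessel wall sit mainly in the adventitia and carry Lyve1, Mrc1 and F13a1. Nuclei with such genes gave a further comparison. Resident nuclei were those with at least 3 of 10 such genes, at most 1 rule marker and at most 1 gene of other types: 196, 75, 121 and 105 nuclei. The 16 pan-macrophage genes summed to 1918, 2457, 1777 and 1948 CPM in them, against 1460.5, 2399, 1424 and 1627 CPM in T/NK-marker nuclei. In high_fat the resident nuclei thus hardly exceeded T/NK-marker nuclei in these genes. Genes that define either set were left out. A gene was called when its CPM ratio was at least 2 in either direction with at least 50 counts in the higher set. In at least 3 of the 4 libraries, 330 genes were higher (10.6% of 3115 tested) and 7 lower (0.225%). Library by library, 19.6, 13.5, 18.9 and 21.2% of the genes tested were called higher and 4.48, 0.0477, 0.845 and 1.52% lower, or 24.1, 13.6, 19.8 and 22.8% in all. The split rests on the count minimum and on the scaling. Rule nuclei held 4003715, 9812842, 1394825 and 2215059 UMIs and resident nuclei 415581, 78970, 155279 and 174537. The minimum of 50 counts thus asked a higher CPM of a gene called lower than of one called higher. With no minimum count the split was 382 higher and 614 lower. With counts scaled so that the pan-macrophage list was level, an alternative added after the data were seen, it was 62 higher and 248 lower, and 69 calls were shared. The pan-macrophage list itself was 2.90, 1.44, 1.93 and 1.96 times higher in rule nuclei than in resident nuclei, and this scaling lowers each ratio by that factor. It shifted the median of all genes by -1.41, -0.51, -0.92 and -0.91 on the log2 scale, and TMM factors shifted it by 0.21, 0.25, 0.21 and 0.20. It was 346 higher and 101 lower with at least 7 markers, and with no exclusion gene 264 higher and 52 lower.

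The macrophage elastase gene Mmp12 led the higher genes under scaling to total counts. It stood at 892, 1136, 1234 and 933 CPM in rule nuclei, against 31.3, 228, 77.3 and 109 CPM in resident nuclei and 125, 502, 206 and 143 CPM in T/NK-marker nuclei. Cd5l, a secreted protein that inhibits cell death in macrophages, stood at 820.2, 587, 673 and 264 CPM against 21.7, 165, 58 and 22.9 CPM in resident nuclei. Lgals3 stood at 1307, 654, 682 and 905 CPM against 98.7, 215, 90.2 and 126 CPM. In each library the rule nuclei were above for these genes. The cathepsin gene Ctsl stood at 2476, 1132, 1619 and 776 CPM against 147, 418, 135 and 143 CPM. Spp1 (osteopontin), a secreted phosphoprotein, stood at 4171, 4816, 6523 and 2296 CPM against 505, 2216, 470.1 and 659 CPM. The ratio of all 5 genes was smallest in high_fat. These levels were uneven over the rule nuclei. The 5% of nuclei with the most Mmp12 held 64.1, 41.8, 48.5 and 57.9% of its counts. For Cd5l such nuclei held 71.6, 41.5, 44.5 and 60.7%, for Ctsl 68.3, 40.3, 57.8 and 46.4% and for Lgals3 39.7, 31.5, 33.3 and 40.5%. Resident nuclei could hold at most 1 rule marker. Nuclei of any type with 0 markers and at most 1 exclusion gene held 32.5, 309, 90.8 and 105 CPM of Mmp12. They held 115, 421, 167 and 198 CPM of Ctsl and 308, 2389, 804 and 659 CPM of Spp1. These levels were of the same order as those of resident nuclei. The part of the marker limit in this contrast was not tested.

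The other named genes had more varied roles. The unconventional myosin Myo1e stood at 1687, 1268, 1123 and 1390 CPM against 205, 342, 206 and 223 CPM. Fnip2, a partner of folliculin in lysosomal nutrient sensing, stood at 1769.9, 1204, 1126 and 1253 CPM against 265, 405, 245 and 275 CPM. Gpr137b, a lysosomal membrane protein, stood at 467, 257, 272 and 321 CPM against 31.3, 50.7, 45.1 and 34.4 CPM. The folate enzyme Mthfs, the adhesion molecule Alcam, the endolysosomal protein Litaf, the formin Fmn1, the phospholipase Ddhd1, the receptor Tgfbr1 and the RNA-binding Cpeb4 completed the 15.

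With the count minimum and scaling to total counts, fewer genes ran the other way. Rbpj, the DNA-binding partner of Notch, stood at 359, 378, 378 and 359.8 CPM in rule nuclei against 3691, 2419, 2357 and 2034 CPM in resident nuclei. All other nuclei held 420.1, 415, 391 and 335 CPM, so rule nuclei were near the common level and resident nuclei stood apart. Maf, a transcription factor of resident macrophages, stood at 89.4, 107, 93.2 and 104 CPM against 407, 405, 348 and 367 CPM. Dab2 (an endocytic adaptor), Slc9a9 (a sodium-proton exchanger of endosomes) and Psd3 were lower as well. Sox6, Tmtc1 and Auts2 were below both resident and all other nuclei in each library, while Crim1 hardly differed from resident nuclei in high_fat (491 against 507 CPM). Ddx60 stood at 98.9, 132, 153 and 84.9 CPM against 209, 228, 328 and 286 CPM.

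**Figure D3:**
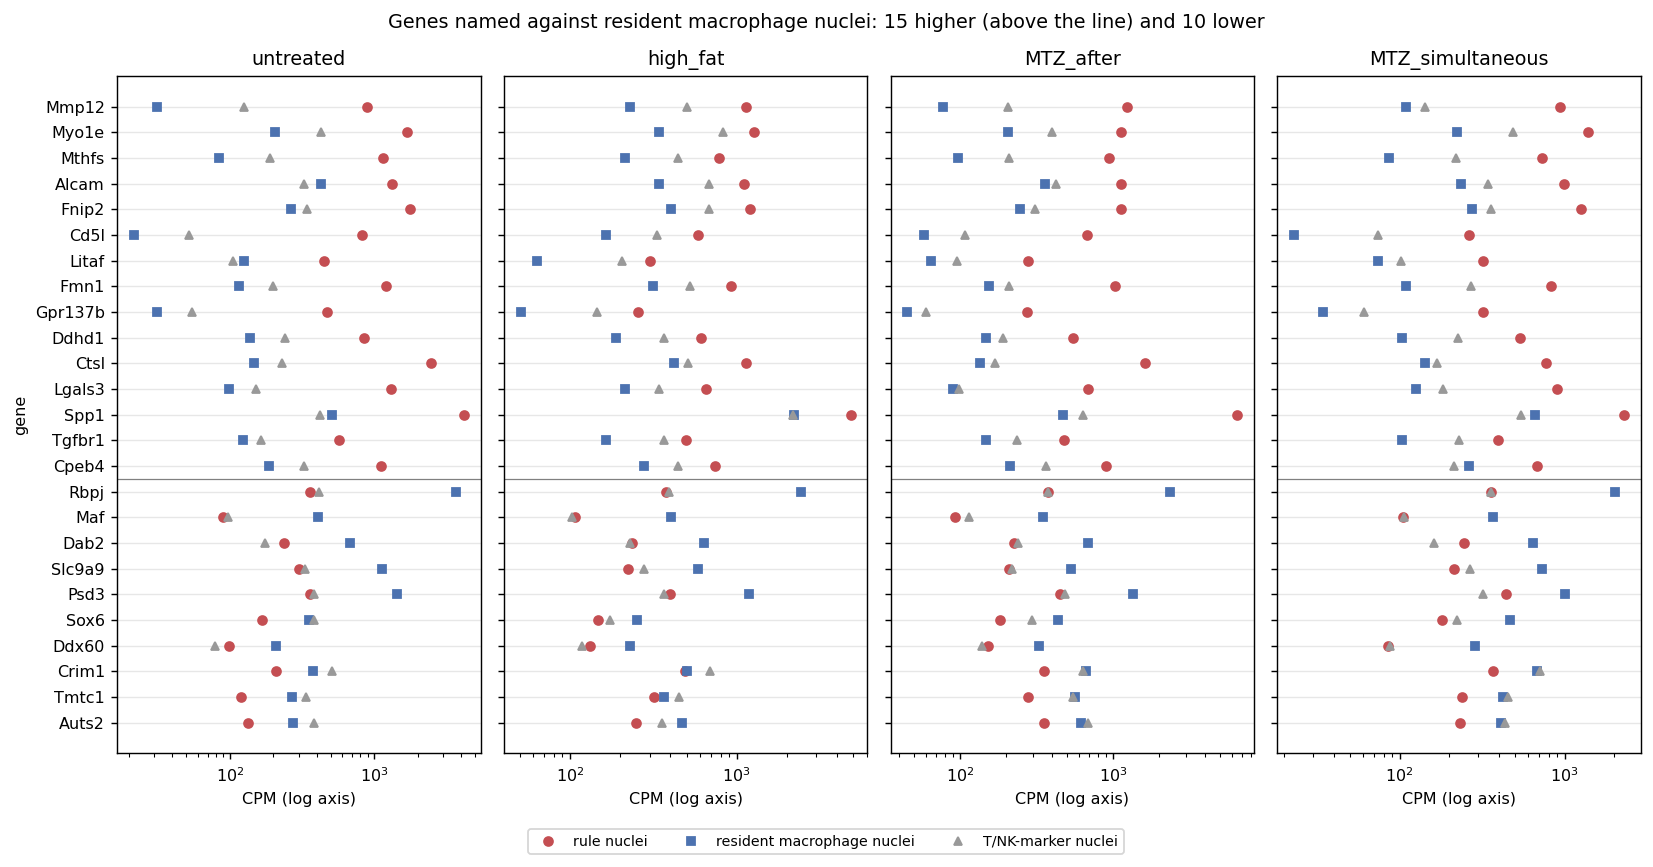
Level (CPM, log axis) of the 15 genes named as higher and the 10 named as lower, in rule nuclei, resident macrophage nuclei and T/NK-marker nuclei of each library. Rbpj and Maf stand out in resident nuclei, and the high_fat rule and resident points of Mmp12 (1136 and 228 CPM) lie closer than those of untreated (892 and 31.3 CPM).

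Gene lists put these values in order. Scaled to total counts, the lipid-associated macrophage list had a median log2 ratio over resident nuclei (pseudocount 1 CPM) of 2.79, 0.89, 1.81 and 1.52, beside -0.05, 0.30, 0.00 and -0.02 over all genes. Medians were 1.65, 0.86, 1.63 and 1.04 for lysosomal hydrolases, 1.56, 0.91, 1.00 and 1.23 for cholesterol efflux and storage and 1.26, 0.74, 1.21 and 1.45 for v-ATPase subunits. In untreated, 15 of 19 lipid-associated, 17 of 21 lysosomal and 9 of 15 v-ATPase genes with 50 counts were called higher, where 19.6% of all tested genes were. In high_fat these counts were 6 of 17, 6 of 17 and 5 of 14, where 13.5% were.

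Scaled to the pan-macrophage list, medians stayed above 0 in each library for the lipid-associated list (1.26, 0.36, 0.86 and 0.55), the lysosomal list (0.13, 0.34, 0.69 and 0.07) and the cholesterol efflux list (0.06, 0.38, 0.06 and 0.26). The v-ATPase median turned to -0.26 in untreated and the osteoclast-type median to -0.11 in MTZ_after. Efferocytosis genes, for the uptake of dying cells, went from 1.26, 0.62, 0.89 and 0.66 to -0.26, 0.10, -0.05 and -0.31. MHC class II genes had medians of -1.08, -0.84, -0.38 and -1.13 and complement genes -1.26, -0.52, -0.73 and -0.64, below 0 under each scaling. Called genes did not all follow the medians. Of the complement genes 4, 2, 4 and 0 were called higher and 2, 0, 0 and 2 lower. Of the MHC class II genes 0 in each library were called higher and 3, 0, 0 and 1 lower. In untreated, high_fat and MTZ_after, genes with 50 counts numbered 6, 7 and 5 for complement and 4, 1 and 0 for MHC class II. Of all genes tested, 19.6, 13.5, 18.9 and 21.2% were called higher and 4.48, 0.0477, 0.845 and 1.52% lower.

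**Figure D4:**
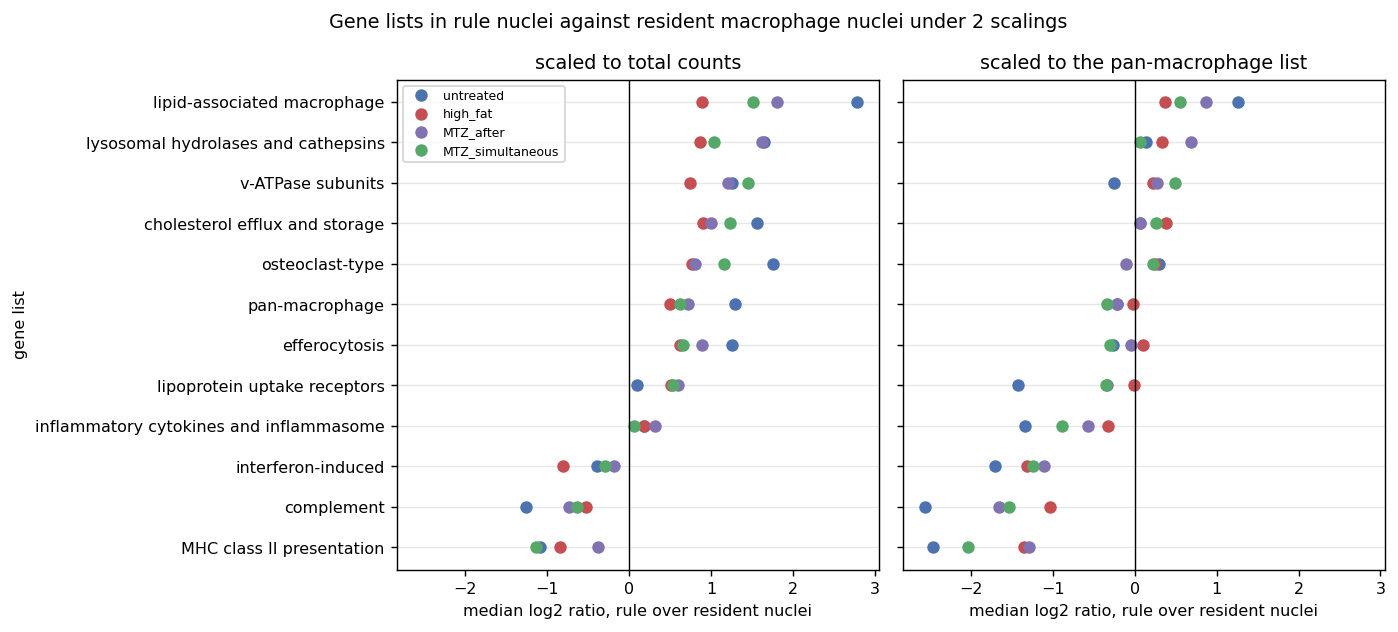
Median log2 ratio of 12 gene lists in rule nuclei over resident macrophage nuclei, 1 point per library, scaled to total counts (left) or to the pan-macrophage list (right). The lipid-associated, lysosomal and cholesterol efflux list medians stay above 0 in both panels, and those of MHC class II and complement stay below it.

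The diet comparison set rule nuclei of high_fat against those of untreated. Scaled to total counts, the medians of the macrophage and lysosome lists lay below 0 with few of their genes called, and lists of other cell types went both ways. Of 11114 genes tested, 955 higher and 146 lower were called, 9.91% in all. With no minimum count the split was 2334 higher and 1469 lower. Rule nuclei held 9812842 UMIs in high_fat and 4003715 in untreated, so the minimum asked a higher CPM of a gene called lower. Scaled to the pan-macrophage list the split was 3138 higher and 33 lower, with the median of all genes shifted by 0.60, and with equal weight for each nucleus it was 626 higher and 195 lower. Lipid-associated genes had a median log2 ratio of -0.68, v-ATPase subunits -0.45, lysosomal hydrolases -0.41 and pan-macrophage genes -0.45, beside 0.07 over all genes. Called lower were 3 of 19, 0 of 15, 1 of 21 and 1 of 16 of their genes, where 1.31% of all were. Scaled to the pan-macrophage list these medians were -0.03, 0.20, 0.24 and 0.19. The direction thus turned for all but the first, while each stayed below the median of all genes (0.67). The pan-macrophage list sets this scaling, so its own turn is no separate result. Endothelial genes had a median of 1.29 (8 of 10 called higher), smooth muscle genes 1.18 (7 of 10) and T and NK genes 1.10 (6 of 10), where 8.59% of all were. Fibroblast and matrix genes had a median of 0.93 (4 of 10 called higher) and B and plasma cell genes 1.39 (8 of 10 called higher). Brown adipocyte genes had a median of -1.33 (8 of 9 called lower), mesothelial genes -2.39 (3 of 3 called lower) and white adipocyte genes -0.22 (1 of 10 called lower), the last turning to 0.42 under the pan-macrophage scaling.

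Iron storage and lipid carrier genes were the abundant ones among the lower. The ferritin heavy chain gene Fth1 stood at 1930.2, 596, 513 and 418 CPM, a ratio of 0.309 (0.298 to 0.319) for high_fat over untreated. Ftl1, the light chain, stood at 2374, 849, 721 and 731 CPM, a ratio of 0.357. The fatty acid carrier Fabp5 stood at 775, 252, 223 and 286 CPM, a ratio of 0.325, and Lyz2 (lysozyme) at 1248, 537, 467 and 449.6 CPM, a ratio of 0.430. The untreated library stood above the other 3 in these genes. In T/NK-marker nuclei Fth1 stood at 229, 301, 147 and 184 CPM and Lyz2 at 105, 277, 80.2 and 109.7 CPM, with high_fat the highest. A single untreated nucleus held 1224 of 7728 Fth1 counts. Without nuclei above 3 times the median depth the ratios moved to 0.486 for Fth1, 0.540 for Ftl1, 0.473 for Fabp5 and 0.605 for Lyz2. Ferritin genes have pseudogenes that can share their reads.

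The other genes named for the diet were scarce. Hdc, Cpa3 and Il1rl1, found in mast cells, were lower at ratios of 0.0885, 0.0889 and 0.108, but 1 untreated nucleus each held 42 of 83, 46 of 78 and 18 of 53 of their counts. The Wnt antagonist Sfrp5 was at 0.137, with 92 of 110 untreated counts in 1 nucleus, and turned to 1.28 without deep nuclei. Olr1, a receptor for oxidised lipoprotein, was higher at 15.3 against 4.25 CPM, a ratio of 3.60 (2.17 to 6.34). It stood at 7.79 and 4.25 CPM in T/NK-marker nuclei. The cell cycle regulator E2f7 (7.54 against 0.749 CPM) and the DNA repair enzyme Neil3 (12.7 against 3.5 CPM) were higher, as were Gimap3, Ankrd1, Trim30b, Rarres1 and the pseudogene Selenok-ps1, none above 12.8 CPM. Gimap3, a GTPase gene of lymphocytes, stood at 40.4 CPM in T/NK-marker nuclei of high_fat.

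Rule nuclei of MTZ_after, compared with those of high_fat, had macrophage list medians near that of all genes. Against high_fat, 159 higher and 328 lower of 9104 genes were called, 5.35% in all (1.75% higher and 3.6% lower). The split was 26 higher and 499 lower with at least 7 markers, with no exclusion gene 30 higher and 332 lower and with at least 5 markers 53 higher and 411 lower. With no minimum count it reversed, to 3876 higher and 669 lower. Rule nuclei held 1394825 UMIs in MTZ_after and 9812842 in high_fat, so the minimum asked a higher CPM of a gene called higher. Medians were 0.13 for lipid-associated genes, 0.00 for lysosomal hydrolases, 0.07 for v-ATPase subunits and -0.03 for pan-macrophage genes, beside 0.00 over all genes. The adrenal cortex list had a median of 3.11 (219 against 51.4 CPM summed), and it summed to 423 CPM in T/NK-marker nuclei of MTZ_after. The proliferation list had a median of -0.79, with 8 of 17 called lower where 3.6% of all tested genes were. Its summed level was 273 CPM in high_fat and 176 in MTZ_after, and 321 and 165 CPM in T/NK-marker nuclei. The genes of this list were scarce, and the minimum count let a scarce gene be called lower more readily than higher. The 8 calls are thus no measure of enrichment over the 3.6%.

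Neuronal and liver genes headed the named genes. Nrg3, a neuregulin, stood at 257 CPM in MTZ_after and 1.02 in high_fat, a ratio of 252 (135 to 529.8), and at 363 CPM in T/NK-marker nuclei of MTZ_after. Cps1, the urea cycle enzyme, stood at 55.9 CPM against 2 counts in high_fat, a ratio of 274 (73.5 to 2306). Cntnap2 stood at 120.5 CPM, but 1 nucleus held 123 of its 168 counts, and without deep nuclei its ratio of 38.1 moved to 13.7. Of Adgrb3, 1 nucleus held 54 of 80 counts. Syt1, Rab3c, Lrrtm4 and Cyp3a25 stood at 117, 35.8, 36.6 and 54.5 CPM, with 183, 56.6, 32.2 and 77.5 CPM in T/NK-marker nuclei. In T/NK-marker nuclei of MTZ_after, Cps1, Cntnap2 and Adgrb3 stood at 18.3, 178 and 96.7 CPM. In those of high_fat all 8 genes stood at 0 to 5.36 CPM, below the MTZ_after level of each. The lower genes were scarce: Ankrd1 had 0 counts against 76, with an upper interval limit of 0.350 for the ratio. Its ratio was 0.278 with the 0 set to a floor of 3 counts. Crlf2, Cdkn2aipnl, Gadd45g, Zbtb2, Kif15, Piga and Zc3h8 had ratios of 0.209 to 0.440.

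Rule nuclei of the MTZ_simultaneous library held less Spp1, Cd5l and Mfge8 than those of high_fat. Against high_fat, 126 higher and 261 lower of 9543 genes were called, 4.06% in all (1.32% higher and 2.73% lower). The split was 47 higher and 334 lower where no exclusion gene was allowed and 107 higher and 368 lower under the pan-macrophage scaling. With no minimum count it was 2405 higher and 836 lower. Rule nuclei held 2215059 UMIs in MTZ_simultaneous and 9812842 in high_fat, so the minimum again asked a higher CPM of a gene called higher. Spp1 stood at 4816 CPM in high_fat and 2296 in MTZ_simultaneous, a ratio of 0.477 (0.463 to 0.491), with 0.424 to 0.508 over the alternatives. It was highest in MTZ_after at 6523 CPM, where 1 nucleus held 993 of 9098 counts. The 5% of nuclei with the most Spp1 held 67.3, 40.2, 70.8 and 48.1% of its counts. Cd5l stood at 587 and 264 CPM, a ratio of 0.450 (0.413 to 0.490). Mfge8, a bridge that tags dying cells for uptake, stood at 551, 354, 296 and 143 CPM, a ratio of 0.403 (0.358 to 0.453) for MTZ_simultaneous over high_fat. In T/NK-marker nuclei these genes went from 2185 to 541 CPM (Spp1), 333 to 74.1 CPM (Cd5l) and 119.8 to 39.1 CPM (Mfge8). They were lower there as well, and a change in these nuclei cannot be told apart from a change in the RNA found in all nuclei of the library.

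Among the other lower genes were the endoplasmic reticulum chaperones Dnajb9 (27.9 and 11.3 CPM) and Sdf2l1 (13.1 and 4.97 CPM), with Prom1, Rarres1 and Olr1, none above 15.3 CPM in high_fat. The ER stress list had a median of -0.34, with 2 of 12 called lower where 2.73% of all tested genes were. Taco1, a translation activator of mitochondrial cytochrome oxidase, was the most abundant of the higher genes, at 85.7, 76.8, 68.8 and 233 CPM, a ratio of 3.03 (2.71 to 3.40). The MTZ_simultaneous library stood apart in T/NK-marker nuclei too, at 60.2, 63.8, 57.5 and 161 CPM. The lipoxygenase Alox15 stood at 33 against 3.36 CPM, beside 32 CPM in all other nuclei of MTZ_simultaneous. The chemokines Cxcl2 (26.6 against 4.59 CPM) and Ccl7 (34.3 against 7.95 CPM) had 25 of 59 and 20 of 76 counts in 1 nucleus, and the ratio of Cxcl2 turned to 0.832 with at least 7 markers, where 2 and 6 counts were left. Rgs6, Cntn6 and Edil3 stood at 59.1, 25.7 and 37.9 CPM. Endothelial genes had a median of -0.70 and T and NK genes -0.87. Lipid-associated, lysosomal and v-ATPase lists had medians of 0.03, 0.00 and 0.03, beside 0.05 over all genes, and -0.08, -0.12 and -0.08 under the pan-macrophage scaling.

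**Figure D5:**
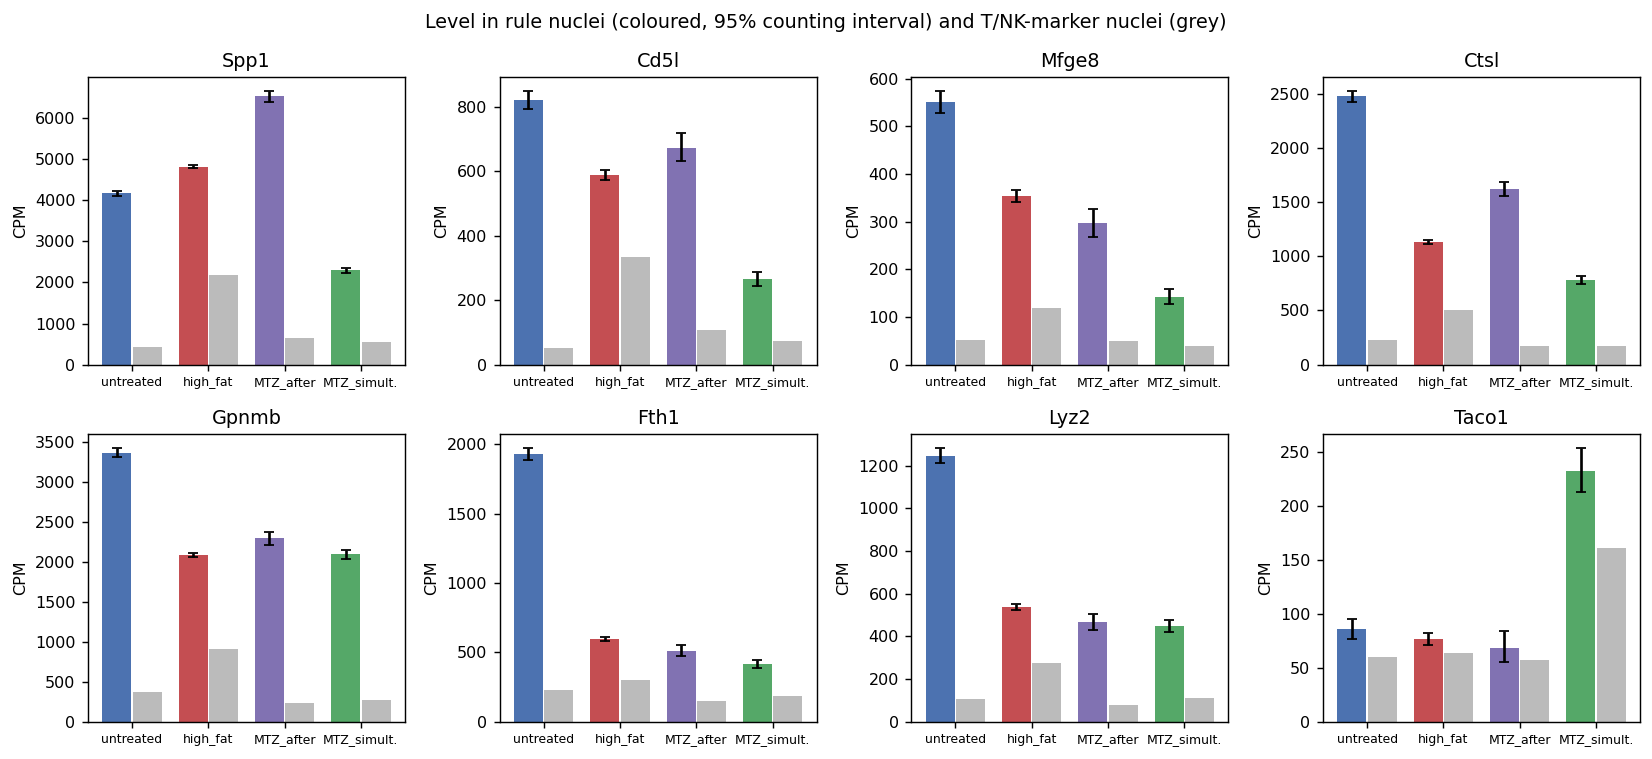
Level (CPM) of 8 genes in rule nuclei of each library (coloured bars, 95% exact Poisson interval) and in T/NK-marker nuclei (grey bars). Spp1, Cd5l and Mfge8 are lowest in MTZ_simultaneous in rule nuclei, Fth1 and Lyz2 are highest in untreated, and Taco1 is highest in MTZ_simultaneous in both classes.

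The comparisons of both MTZ libraries used the same high_fat library, and a difference in that library alone would move them together.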

How the data were processed

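Nuclei of 4 aorta libraries (10x 3' kit, version 3.1) were analysed from the deposited matrices of UMI counts, 1 per library. Per the file headers the authors made these counts with Cell Ranger 7.0.1, and the submitters' processing notes name STAR and mm10. The treatment of intronic reads was not stated there. Kept nuclei had at least 300 genes and at most 10% mitochondrial counts. No doublet caller was run, and rule nuclei above 3 times the median depth were left out in an alternative. Total UMIs were 69201159, 50358151, 31517272 and 37962370 in untreated, high_fat, MTZ_after and MTZ_simultaneous.

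Counts were summed over nuclei and scaled to counts per 1000000 (CPM). Intervals (95%; exact Poisson for CPM, Clopper-Pearson for shares, conditional for ratios) cover counting error only. Named genes were, by the interval bound nearest to 1, the 15 highest and 10 lowest against resident nuclei and the 8 highest and 8 lowest called in each library comparison, there only if at or above the level of other nuclei. Mitochondrial, ribosomal, haemoglobin, sex-linked and predicted genes were left out. Any gene of the lists could also be named. Results of some single genes are not reported here. List medians used genes with at least 10 counts over both sets. TMM factors came from edgeR 4.0.16 in R 4.3.3, and other steps ran in Python 3.11.15 with scipy 1.17.1. The calling rule and the ratio intervals were tried on simulated counts with counting error only, for the library comparisons. The trial covered genes expected above the minimum count, by a limit that was raised after a first trial. The resident comparison was not simulated. The planned T/NK class left 92, 41, 62 and 42 nuclei, so all T/NK-marker nuclei were used. Backgrounds of other cell types, the threshold of 7 markers, the pan-macrophage scaling and resident nuclei with up to 3 markers were added after the data were seen. The rule nuclei and the gene lists were chosen with earlier results of these data known.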

Additional observations from a re-analysis of the deposited data

How the results depend on the processing

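With 1 library a group, no library could be left out and differences between animals are not covered. No paired analysis was possible because each group had 1 library and the labels give no replicate numbers. The share of nuclei passing the rule moved with the rule: it was 6.92, 29.7, 6.70 and 7.95% with at least 3 markers, 3.07, 9.08, 1.61 and 3.06% with at least 5, 1.33, 2.03, 0.349 and 0.960% with at least 7, 1.63, 6.05, 1.22 and 1.55% with no exclusion gene and 1.47, 5.56, 1.28 and 1.48% after thinning to 500 UMIs. Without nuclei above 3 times the median depth it was 4.28% in untreated and 16.7% in high_fat, and with at least 500 genes and at most 5% mitochondrial counts 3.88% in MTZ_after. Genes called numbered 3803 with no minimum count for high_fat against untreated, 679 with at least 7 markers and 3171 scaled to the pan-macrophage list. For MTZ_after against high_fat they numbered 4545 with no minimum and 236 with at least 100 counts, for MTZ_simultaneous 3241 and 225, and against resident nuclei 996 with no minimum. List medians beyond 1 on the log2 scale numbered 43, and 28 with equal weight per nucleus, 21 with a pseudocount of 10 CPM, 71 with at least 7 markers and 75 with the pan-macrophage scaling. The causes were not tested.

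Scaled to the pan-macrophage list, the direction turned for rule against resident nuclei of untreated in the pan-macrophage list median (-0.22), the v-ATPase subunits list median (-0.26), the efferocytosis list median (-0.26), Atf3 (0.900), Atp6v0a1 (0.865), Atp6v1e1 (0.833), Atp6v1f (0.926), Atp6v1h (0.705), C1qa (0.844), Calr (0.867), Casp1 (0.764), Ccl2 (0.867), Ccl4 (0.946), Cd72 (0.960), Cd9 (0.767), Ctsa (0.919), Cxcl16 (0.853), Cybb (0.853), Fcer1g (0.857), Gapdh (0.976), Glb1 (0.738), Grn (0.715), Hexa (0.947), Igf1 (0.855), Kcnn4 (0.846), Lamp1 (0.797), Mcm6 (0.729), Mcoln2 (0.947), Mitf (0.916), Npc2 (0.871), Plaur (0.695), Pltp (0.804), Slc9a7 (0.991), Tfec (0.907), Tgfb1 (0.691), Tnfrsf11a (0.722) and Tpcn2 (0.905). The pan-macrophage list sets that scaling, so the turn of its own median is no separate result. With at least 7 markers, the direction turned for rule against resident nuclei of high_fat in the cholesterol synthesis list median (-0.31). For MTZ_after against high_fat it also turned Cd79b (1.69). The same setting turned, for MTZ_simultaneous against high_fat, Cxcl2 (0.832). For high_fat against untreated it also turned Kcnk3 (1.09). The same setting turned, for rule against resident nuclei of MTZ_simultaneous, Ier3 (0.627). With up to 3 rule markers in resident nuclei, the direction turned for rule against resident nuclei of high_fat in the mesothelial list median (-0.61), Camk4 (0.733), Car5b (0.631), Ddx58 (0.759) and Kcnma1 (0.922). The same setting turned, for rule against resident nuclei of MTZ_after, Ier2 (0.947). For rule against resident nuclei of MTZ_simultaneous it also turned Ccr1 (0.977), Ier3 (0.526) and Slc4a2 (0.817). With no exclusion gene, the direction turned for MTZ_after against high_fat in Nr4a2 (0.927). Without nuclei above 3 times the median depth, the direction turned for high_fat against untreated in Sfrp5 (1.28). With equal weight per nucleus, the direction turned for rule against resident nuclei of MTZ_simultaneous in Muc16 (1.07). In 12 further cases a single gene gave no value under an alternative, since both sets had at most 3 counts or a set at 0 counts left the direction unsettled. They include Ankrd1 of MTZ_after against high_fat, with at least 7 markers and with no exclusion gene.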
